A study of Sus scrofa with 8 samples.

Results

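The secretory cell products described here are proteins that the secretory cells of the oviduct lining make or release, together with 1 transcription factor that marks these cells. The list holds 9 genes, namely OVGP1, SPP1, MUC1, PAX8, WFDC2, SLPI, LTF, AZGP1 and PIGR. Every probe set whose single gene symbol in the platform annotation is one of them was taken, which gave 12 probe sets of 8 genes among the 24123 probe sets of the array, of which 10099 have 1 symbol. PAX8, the transcription factor, has no probe set under its own symbol and was not analysed here.

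The study asked whether the pig oviduct responds differently to spermatozoa that carry an X or a Y chromosome. Weaned Landrace × Large White sows with pre-ovulatory follicles were inseminated by laparoscopy, with sorted X-spermatozoa in one oviduct and sorted Y-spermatozoa in the other, both pooled from the same boars, and the uterine horns were stapled so that the 2 populations stayed apart. Mucosal cells were scraped from both oviducts after 24 h, in sows that had not ovulated, and the RNA of each oviduct was hybridised to 1 Affymetrix Porcine array. The data comprise 4 arrays from oviducts with X-spermatozoa (X1 to X4) and 4 with Y-spermatozoa (Y1 to Y4). The same number was read as the same sow, which the labels do not state, and all values by sow rest on this reading. Oviducts without spermatozoa were not part of the comparison, so each difference is between the 2 kinds of spermatozoa and gives no response to insemination as such.

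The oviduct epithelium consists of ciliated cells and secretory cells, and the secretory cells feed the fluid in which spermatozoa are stored and in which fertilization takes place. Oviductin (OVGP1) is their best known product, its synthesis is driven by oestrogen around ovulation, and it binds to the zona pellucida and to spermatozoa. Other products restrain proteases, bind iron, coat the cell surface or carry antibodies into the lumen.

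Signals are the linear values deposited for each probe set. Over all probe sets, the median signal ranged from 38.7 to 41.2 between arrays. A background level was taken on each array from 64 reporter probe sets with no pig target, as the 95th percentile of their signals, and it was 8.40 to 12.5. Of the 12 probe sets, 10 lay above this level on all 8 arrays, 1 of PIGR on 7 and 1 of MUC1 on 6. Signals of different probe sets are not compared with each other, since each has its own hybridisation efficiency. EPCAM, a surface protein of epithelial cells, had signals of 2890 to 3805 on the 8 arrays, and its log2 difference was -0.01 (standard error 0.11). Differences are Y-spermatozoa minus X-spermatozoa on the log2 scale after quantile normalization, unless the deposited scaling is named. In bulk RNA of scraped cells, fewer secretory cells and less RNA per secretory cell cannot be told apart. The limma p-values without a block rest on the spread between arrays within each group. The exact permutation p-values rest on relabelling the arrays, and both ignore the sow. Limma p-values with the sow as a block (a term for each sow) rest on the spread between both oviducts of a sow. So do those of the sow F test. In each limma fit the spread of a probe set was drawn toward a value estimated over all probe sets fitted. All p-values come from these 4 sows.

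None of the 12 probe sets passed a threshold of 0.05 for the limma p-value, unadjusted or after Benjamini-Hochberg adjustment over 23999 probe sets. Over all probe sets 3.56% passed unadjusted and 0 passed adjusted, with a smallest adjusted p of 0.110. The median log2 difference of the 12 was 0.07 against 0.00 over all probe sets tested. Of the 12 values 9 were above 0 and 3 below, where 50.7% of all probe sets tested were above 0. On the deposited scale 3 bright products, OVGP1, SPP1 and SLPI, had the higher signal with Y-spermatozoa in all 4 sows, by 1.01 to 1.50 times. So did the brighter probe set of WFDC2 and the dimmer one of AZGP1. The share of all probe sets that did so was not counted, but 98 of the 100 brightest had the higher deposited mean with Y-spermatozoa. The brighter probe sets of AZGP1, MUC1 and WFDC2 and the probe set of LTF varied more from sow to sow than between both oviducts of a sow. On the normalized scale this also held, by smaller margins, for OVGP1, SLPI and the dimmer MUC1 probe set.

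**Figure D1:**
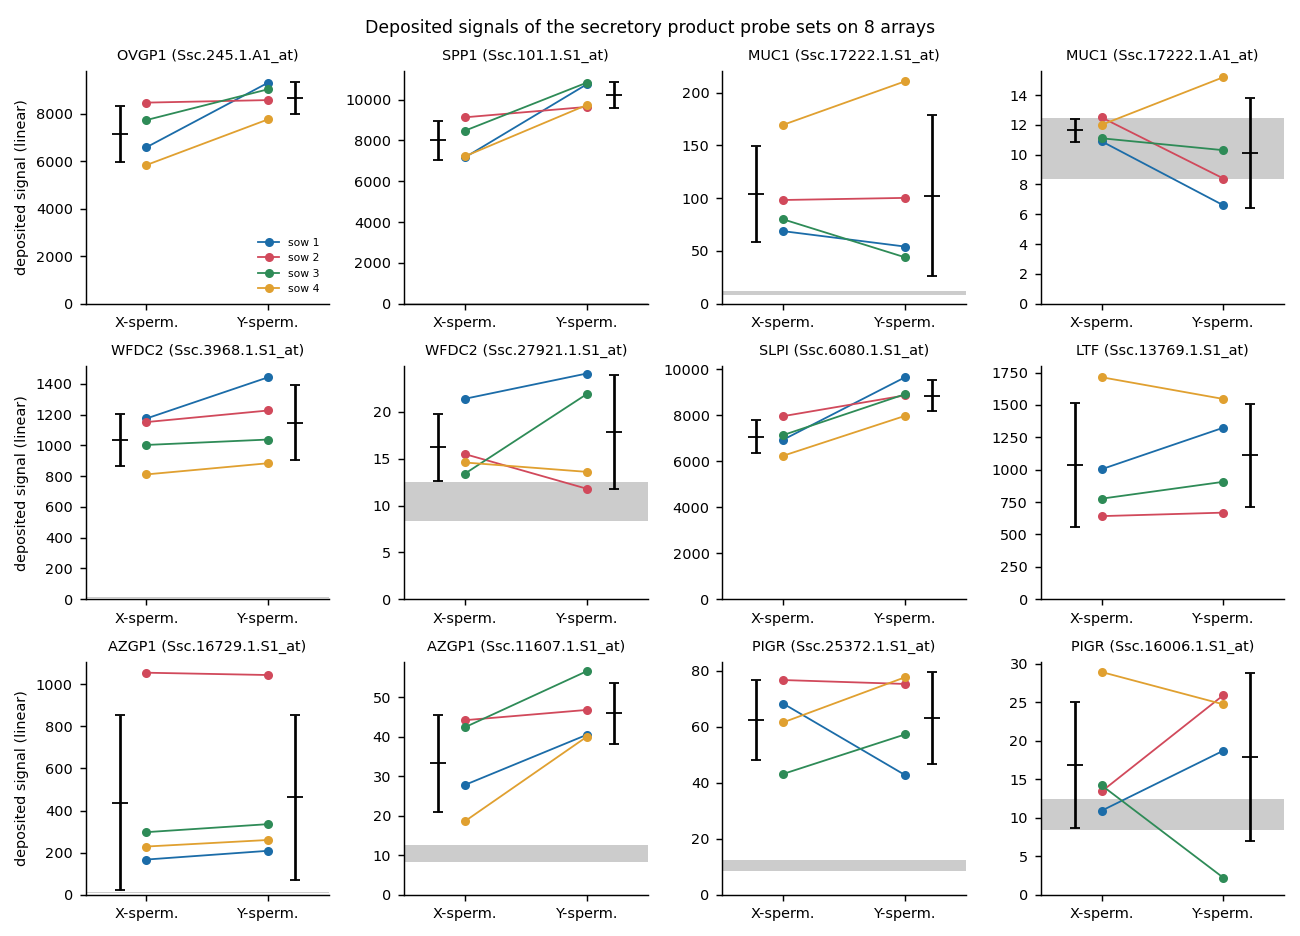
Deposited linear signals (vertical axes, each starting at 0) of the 12 probe sets in oviducts with X-spermatozoa and with Y-spermatozoa. Coloured lines join both oviducts of a sow, black bars give the mean and SD of 4 arrays, and the grey band is the range of the background level over the arrays (8.40 to 12.5). OVGP1, SPP1, SLPI, WFDC2 (Ssc.3968.1.S1_at) and AZGP1 (Ssc.11607.1.S1_at) are higher with Y-spermatozoa in all 4 sows. AZGP1 (Ssc.16729.1.S1_at) is separated by sow, with sow 2 far above the others in both oviducts.

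OVGP1 was measured by 1 probe set (Ssc.245.1.A1_at). Its signals were 6589, 8469, 7736 and 5841 with X-spermatozoa in sows 1 to 4, and 9315, 8576, 9035 and 7769 with Y-spermatozoa. The Y oviduct was the higher one in 4 of 4 sows, by 1.41, 1.01, 1.17 and 1.33 times, although the 2 groups overlapped, since the X oviduct of sow 2 was above the Y oviduct of sow 4. The means were 7159 ± 1170 (SD, n = 4) and 8674 ± 676 (SD, n = 4). On the deposited scale the log2 difference was 0.29 (standard error 0.14, 95% interval -0.05 to 0.63), with p = 0.0838 in limma, p = 0.0680 with the sow as a block, and p = 0.0571 when the 8 arrays were relabelled in an exact permutation test (two-sided, as all that follow). After quantile normalization the difference was 0.02 (standard error 0.12, 95% interval -0.26 to 0.31), with a limma p of 0.870 and an exact permutation p of 0.886.

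SPP1 encodes osteopontin, a secreted phosphoprotein that binds integrins and CD44. Its probe set (Ssc.101.1.S1_at) gave 7161, 9128, 8471 and 7216 with X-spermatozoa and 10743, 9637, 10825 and 9730 with Y-spermatozoa, so that every Y array lay above every X array. The means were 7994 ± 968 (SD, n = 4) and 10234 ± 637 (SD, n = 4). Within the sows the Y signal was 1.50, 1.06, 1.28 and 1.35 times the X signal. On the deposited scale the log2 difference was 0.36 (standard error 0.12, 95% interval 0.08 to 0.64), a fold of 1.29. This passed the unadjusted threshold in limma, with a p of 0.0185 and of 0.0340 with the sow as a block, but had an adjusted p of 1. The exact permutation test gave p = 0.0286, the smallest value that 4 arrays against 4 allow. After quantile normalization the difference was 0.08 (standard error 0.09, 95% interval -0.13 to 0.30), with a limma p of 0.379. The normalized values still did not overlap, and 0.896% of all probe sets had all Y arrays above all X arrays on that scale. The exact permutation test, which unlike limma uses no spread of other probe sets, again gave p = 0.0286.

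SLPI, the secretory leukocyte protease inhibitor, blocks neutrophil elastase and cathepsin G on mucosal surfaces. Its probe set (Ssc.6080.1.S1_at) gave 6942, 7967, 7143 and 6244 with X-spermatozoa and 9660, 8871, 8924 and 7981 with Y-spermatozoa. Here too the groups did not overlap, although the highest X array (X2, 7967) and the lowest Y array (Y4, 7981) were nearly equal. The means were 7074 ± 709 (SD, n = 4) and 8859 ± 687 (SD, n = 4), and the ratios within sows were 1.39, 1.11, 1.25 and 1.28. The log2 difference was 0.33 on the deposited scale (standard error 0.12, 95% interval 0.05 to 0.60, fold 1.25), with p = 0.0252 in limma, p = 0.0251 with the sow as a block and p = 0.0286 in the exact permutation test. The adjusted p was 1. After quantile normalization the difference was 0.05 (standard error 0.10, 95% interval -0.19 to 0.28), the groups overlapped, and the limma p was 0.659 and the exact permutation p 0.457.

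Of all probe sets, 0.700% had every Y array above every X array on the deposited scale, and 1.13% passed the unadjusted threshold with the Y group higher. SPP1 and SLPI were the 2 member probe sets in both of these classes. They are bright, and this is where the scalings part. On each array SPP1 ranked between 1 and 6 in signal, SLPI between 5 and 13 and OVGP1 between 5 and 21. Quantile normalization gives probe sets of equal rank an equal value, so that SPP1, in rank 4 on X1, X2 and X3, received one value (13.14) on all 3 arrays whose deposited signals ran from 7161 to 9128. Normalized values of such probe sets carry their rank and little else.

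The bright end of the Y arrays was higher as a whole. Of the 100 brightest probe sets, 98 had a higher deposited mean with Y-spermatozoa, with a median log2 difference of 0.15 against -0.01 over all probe sets. Within these 100, no probe set had a larger difference than SPP1, 3 had a larger one than SLPI and 10 a larger one than OVGP1. The 27 hybridisation control probe sets, which report RNAs spiked into the hybridisation mix and none from the pig, differed by 0.29 in the same direction, and were higher on the Y array of 4 of 4 sows. Their log2 differences in sows 1 to 4 were 0.50, 0.05, 0.33 and 0.29, beside 0.59, 0.08, 0.35 and 0.43 for SPP1, 0.48, 0.16, 0.32 and 0.35 for SLPI, and 0.50, 0.02, 0.22 and 0.41 for OVGP1. The sow with the largest control difference was the one with the largest difference of the 3 products, and the sow with the smallest was likewise the same. With each array scaled to its hybridisation controls, the differences were 0.07 for SPP1 (standard error 0.13), 0.03 for SLPI and -0.00 for OVGP1, with limma p-values of 0.595, 0.802 and 0.976. EPCAM differed by 0.15, -0.03, 0.04 and 0.20 in the 4 sows on the deposited scale. Scaling to the controls lowers the deposited difference of every probe set by the same 0.29, and that of EPCAM was then -0.20 (standard error 0.13). After quantile normalization the controls still differed by 0.21. The part of the hybridisation in the differences of the 3 products was not tested.

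**Figure D2:**
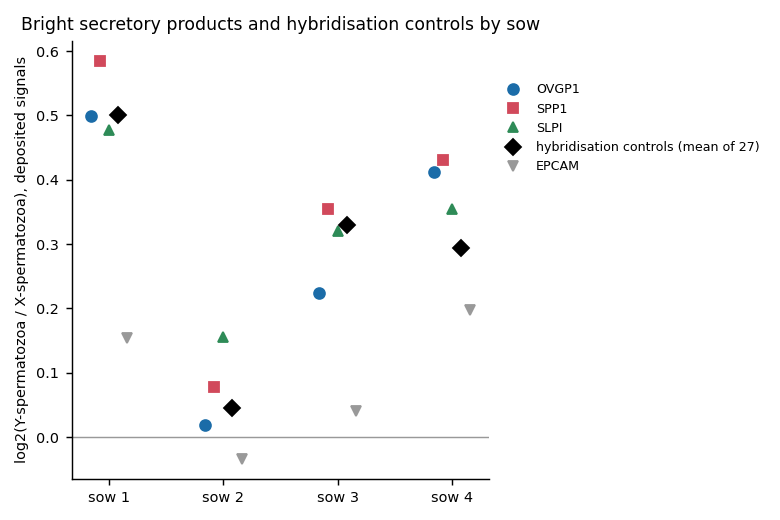
Log2 ratio of the deposited signal with Y-spermatozoa over that with X-spermatozoa (vertical axis) in each of 4 sows (horizontal axis), for OVGP1, SPP1, SLPI, the mean of 27 hybridisation controls and EPCAM. The 3 secretory products and the controls lie close together in each sow, highest in sow 1 and lowest in sow 2, with EPCAM below them.

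With single arrays left out on the deposited scale, the difference of SPP1 stayed between 0.31 and 0.43 and passed the unadjusted threshold in 6 of 8 fits, the limma p being 0.0504 without X1 and 0.0508 without X4. The difference of SLPI stayed between 0.27 and 0.39 and passed in 4 of 8 fits, missing the threshold without X1, X4, Y1 or Y3, with limma p-values up to 0.0671. OVGP1 passed it without X2 alone, with a limma p of 0.0356. Array Y1 also had the highest ratio of 3′ to 5′ signal of the actin control (8.35, against 5.46 to 6.61 on the other 7) and of GAPDH (6.0, against 3.83 to 4.58), a ratio that is commonly read as a measure of RNA integrity. Without Y1, the deposited log2 difference was 0.34 for SPP1, 0.28 for SLPI and 0.25 for OVGP1, with limma p-values of 0.0417, 0.0582 and 0.162.

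**Figure D3:**
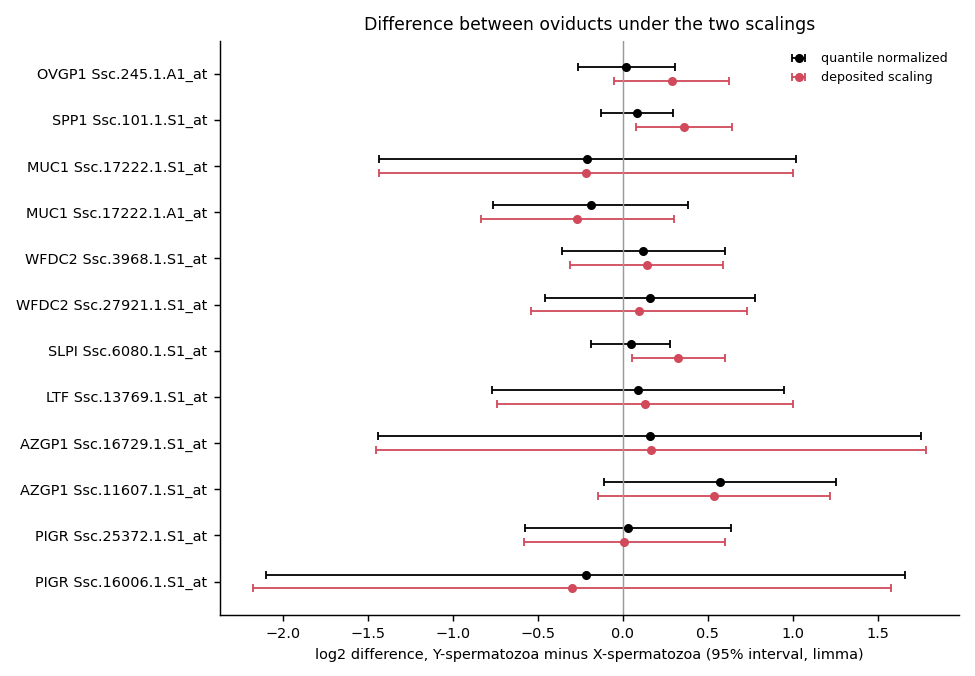
Log2 difference between oviducts with Y-spermatozoa and with X-spermatozoa (horizontal axis) with its 95% interval from limma, for the 12 probe sets after quantile normalization (black) and on the deposited scale (red). The intervals of SPP1 and SLPI exclude 0 on the deposited scale alone, and all other intervals include it.

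WFDC2 is a small protein with the same kind of four-disulphide domain as SLPI, and both genes lie on the same chromosome of the pig assembly Sscrofa11.1 with 12 annotated genes between them. Its brighter probe set (Ssc.3968.1.S1_at) gave 1176, 1152, 1003 and 812 with X-spermatozoa and 1444, 1228, 1039 and 885 with Y-spermatozoa. The Y oviduct was the higher one in 4 of 4 sows, but both oviducts followed the same order of sows, from sow 1 down to sow 4. The normalized log2 difference was 0.12 (standard error 0.21, exact permutation p = 0.571). With single arrays left out and no block it ran from -0.01 (without Y1) to 0.25 (without Y4). With the sow as a block it stayed between 0.07 and 0.15 whichever sow was left out. The other WFDC2 probe set (Ssc.27921.1.S1_at) was dim, at 13.4 to 21.4 with X-spermatozoa and 11.8 to 24.1 with Y-spermatozoa, with a difference of 0.16 (standard error 0.27).

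LTF encodes lactoferrin, an iron-binding protein of mucosal fluids that withholds iron from bacteria. Its probe set (Ssc.13769.1.S1_at) gave 1004, 642, 776 and 1714 with X-spermatozoa and 1325, 669, 907 and 1546 with Y-spermatozoa. Sow 4 was the highest and sow 2 the lowest with either kind of spermatozoa, and the groups overlapped over nearly their whole range. The log2 difference was 0.09 (standard error 0.37, 95% interval -0.77 to 0.95, exact permutation p = 0.857).

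PIGR is the receptor that carries polymeric immunoglobulins across the epithelium into the lumen. The probe set above background on all arrays (Ssc.25372.1.S1_at) gave 68.2, 76.6, 43.1 and 61.5 with X-spermatozoa and 42.7, 75.2, 57.2 and 77.6 with Y-spermatozoa, higher with Y-spermatozoa in 2 of 4 sows. Its log2 difference was 0.03 (standard error 0.26, 95% interval -0.57 to 0.64). The other PIGR probe set (Ssc.16006.1.S1_at) ranged from 2.20 on Y3 to 28.9 on X4, partly below background, and had a difference of -0.22 (standard error 0.81).

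MUC1 is a transmembrane mucin of the apical cell surface. Its brighter probe set (Ssc.17222.1.S1_at) gave 68.7, 98.2, 79.9 and 169 with X-spermatozoa and 54.1, 100.2, 43.9 and 211 with Y-spermatozoa. Both oviducts of sow 4 were above all 6 other oviducts, and the Y oviduct was the higher one in 2 of 4 sows. The log2 difference was -0.21 (standard error 0.53, 95% interval -1.44 to 1.02, exact permutation p = 0.714). The second MUC1 probe set (Ssc.17222.1.A1_at) lay near background at 6.60 to 15.2, with a difference of -0.19 (standard error 0.25).

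AZGP1 encodes zinc-alpha-2-glycoprotein, a secreted protein with the fold of an MHC class I chain, and its 2 probe sets behaved differently. The brighter one (Ssc.16729.1.S1_at) gave 167, 1055, 297 and 229 with X-spermatozoa and 209, 1044, 336 and 260 with Y-spermatozoa. Sow 2 stood far above the other 3 sows in both oviducts, the spread within each group was therefore wide (437 ± 415 and 462 ± 391, SD, n = 4), and the log2 difference between the groups was 0.16 (standard error 0.69, 95% interval -1.44 to 1.76, exact permutation p = 0.743). The dimmer probe set (Ssc.11607.1.S1_at) gave 27.8, 44.2, 42.4 and 18.6 with X-spermatozoa and 40.5, 46.8, 56.6 and 40.0 with Y-spermatozoa.

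This dimmer AZGP1 probe set had the largest difference of the 12, at 0.57 (standard error 0.29, 95% interval -0.11 to 1.25), a fold of 1.49, and its Y oviduct was the higher one in all 4 sows. The groups overlapped, the limma p was 0.0880 and the exact permutation p 0.143. With the sow as a block the standard error fell to 0.19 and the unadjusted limma p was 0.0360 (adjusted p = 0.895), in a fit in which 5.09% of all probe sets passed the unadjusted threshold and 2.35% passed it with the Y group higher. The blocked call was lost without sow 1, 3 or 4, with limma p-values of 0.0994, 0.0831 and 0.0726. Without a block, the difference passed the unadjusted threshold when X2 was left out, with a limma p of 0.0388, and was 0.32 without X4, with a limma p of 0.189. Since the 2 AZGP1 probe sets differ in their pattern over the sows, the files do not settle which of them follows the AZGP1 transcript more closely.

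The sows themselves were compared by a limma F test of the sow terms in a fit with sperm type and sow, which asks whether animals differed by more than both oviducts of an animal did. Among the 12 members 4 passed the unadjusted threshold, while 14.2% of all probe sets and 32 of 149 (21.5%) on the other gene lists described below did. They were the brighter probe set of AZGP1, with a limma p of 0.000128 (adjusted p = 0.140), LTF, with 0.00875 (adjusted p = 0.240), and the brighter probe sets of MUC1, with 0.0116 (adjusted p = 0.255), and WFDC2, with 0.0218 (adjusted p = 0.294). No probe set on the array passed after adjustment, the smallest adjusted p being 0.0744.

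The sow means differed by much more than the 2 oviducts of a sow for these 4 probe sets. For AZGP1 (Ssc.16729.1.S1_at) the mean of sow 2 was 5.54 times that of sow 1 on the normalized scale, while the largest difference within a sow was 1.24-fold. For MUC1 sow 4 was 3.26 times sow 3, against at most 1.79-fold within a sow. For LTF sow 4 was 2.43 times sow 2, against 1.32-fold, and for WFDC2 sow 1 was 1.62 times sow 4, against 1.22-fold. The order of the sows was not shared. Sow 4 was highest for LTF and MUC1 and lowest for WFDC2, and sow 2, highest for AZGP1, was lowest for LTF.

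**Figure D4:**
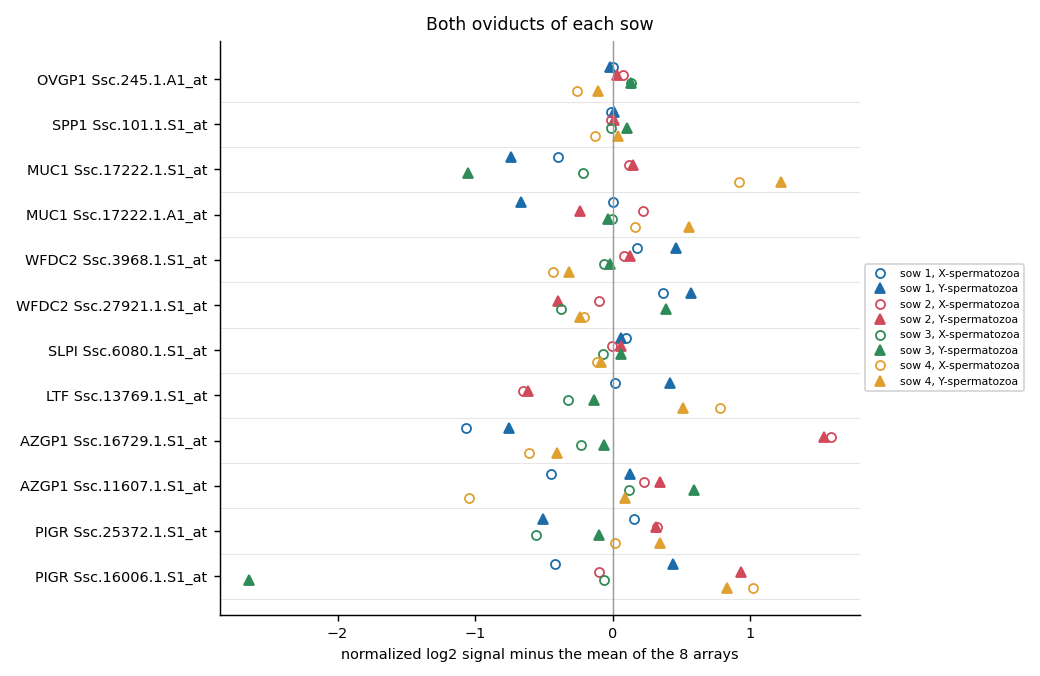
Normalized log2 signal of the 12 probe sets on each array, minus the mean of the 8 arrays (horizontal axis). Colours give the sow, open circles the oviduct with X-spermatozoa and triangles that with Y-spermatozoa. For AZGP1 (Ssc.16729.1.S1_at), LTF, MUC1 (Ssc.17222.1.S1_at) and WFDC2 (Ssc.3968.1.S1_at) the sow means span a wider range than the 2 symbols of any sow. This also holds, by smaller margins, for OVGP1, SLPI and MUC1 (Ssc.17222.1.A1_at). Both symbols of sow 2 stand apart for AZGP1 and both of sow 4 for MUC1.

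When the test was limited to the 11999 probe sets brighter than the median, which include 8 of the 12 probe sets, adjusted p-values under 0.05 were found for AZGP1 (0.000740), LTF (0.0193) and MUC1 (0.0193), and WFDC2 had 0.0569, in limma. In that test 7.46% of the probe sets passed. With a pseudocount of 16 in place of the floor of 1 the same 3 passed in limma (adjusted p = 0.00209, 0.0400 and 0.0408), among 1.73% of all. With a variance trend in limma AZGP1 alone passed (adjusted p = 0.00675). AZGP1 kept an unadjusted limma p between 0.000600 and 0.0187 whichever array or sow was left out. The unadjusted call of LTF was lost without sow 2, at a limma p of 0.0572, that of MUC1 without Y4 or without sow 4, at up to 0.0959, and that of WFDC2 without X2, X4, Y1, Y4, sow 1 or sow 4, at up to 0.178.

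OVGP1, SPP1 and SLPI differed less between sows than these 4. Their highest sow mean was 1.24, 1.06 and 1.13 times the lowest on the normalized scale, against at most 1.11, 1.12 and 1.10 times within a sow, with unadjusted limma p-values of 0.218, 0.905 and 0.571. For these probe sets the normalized range is narrowed by their rank, as described above. Sow 4 had the lowest mean deposited signal of all 3, at 6805 for OVGP1, 8473 for SPP1 and 7112 for SLPI.

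To show what else varied in the same way, the probe sets most like each member over the 8 arrays were listed by Pearson's r of the normalized log2 values, among 5938 probe sets of 1 gene with a mean signal above the median. These values are descriptive, since the 8 arrays come from 4 sows and share the normalization. The brighter AZGP1 probe set was followed most closely by SCGN (r = 0.982), GUSB (0.977) and CXCL16 (0.960). SCGN, the calcium-binding protein secretagogin, had 259 and 331 in sow 2 and 65.0 to 121 with X-spermatozoa and 77.4 to 123 with Y-spermatozoa in the other sows. GUSB, the lysosomal beta-glucuronidase, had 480 and 500 in sow 2 and 234 to 289 elsewhere, and the chemokine CXCL16 had 240 and 232 in sow 2 and 124 to 177 elsewhere. Sow 2 was highest in both oviducts for all 3, which follows from their choice by likeness to this AZGP1 probe set.

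LTF was followed by RTN1 (r = 0.984), a protein of the endoplasmic reticulum, by GSN (0.973), the actin-severing protein gelsolin, and by SLC45A3 (0.935). RTN1 was highest on X4 and Y1, at 265 and 249, and lowest on both arrays of sow 2, at 111 and 105. GSN was highest in both oviducts of sow 4, at 1805 and 2046. MUC1 was followed by the chaperone HSPA4 (r = 0.966), by DOLK (0.962), a kinase of the glycosylation pathway, and by UPK1B (0.961), a membrane protein of the urothelium, whose signals were 1232 and 1217 in sow 4 and 592 to 999 elsewhere. WFDC2 was followed by EIF4EBP2 (0.982), a repressor of translation initiation, NDRG2 (0.977) and AAGAB (0.973), each highest on Y1.

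OVGP1 was most like C3H2orf81 (r = 0.957), the ubiquitin ligase RFWD2 (0.949) and B2M (0.943), the light chain of MHC class I, whose signals were lowest on X4 (5005) as those of OVGP1 were. SPP1 was most like MRPS9 (0.964), a protein of the mitochondrial ribosome, BCKDHA (0.942), an enzyme of branched-chain amino acid breakdown, and TPCN2 (0.909). SLPI was most like NUP50 (0.948), CCDC71 (0.940) and EXOSC9 (0.936). The normalized values of OVGP1, SPP1 and SLPI carry their rank and little else, as described above, which limits their listings. The dimmer AZGP1 probe set was most like DCAF8 (0.965), WDR82 (0.937) and RSPH14 (0.936), the dimmer WFDC2 probe set UBE4A (0.967), ASIP (0.956) and TLR4 (0.951), and PIGR DCAF13 (0.967), TCP11L1 (0.962) and MAT2B (0.948). No member was among the genes listed here for another member. The dimmer probe sets of MUC1, WFDC2, AZGP1 and PIGR were not above the median signal and could not be listed. Among the bright members, r was 0.666 for OVGP1 with SPP1, 0.519 for OVGP1 with SLPI and 0.515 for SPP1 with SLPI. On the deposited scale these values were 0.933, 0.943 and 0.935. The listing therefore does not decide whether members vary together.

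Other genes of the same cells and pathways were taken as lists, to be read against the 3.56% of all probe sets that passed unadjusted. Of other genes of the secretory epithelium, 16 of 25 had a probe set, and of their 24 probe sets 1 passed the unadjusted threshold, higher with Y-spermatozoa, with a median log2 difference of 0.08. It belonged to CLDN3, a tight junction protein, whose signals on the probe set that passed were 17.4, 28.1, 25.0 and 20.7 with X-spermatozoa and 27.4, 29.2, 28.5 and 38.2 with Y-spermatozoa. On that probe set CLDN3 differed by 0.49 (standard error 0.18, exact permutation p = 0.0571), with a limma p of 0.0300 and an adjusted p of 1, and was higher in all 4 sows although the groups overlapped. The brighter CLDN3 probe set, at 135 to 247, differed by -0.13 (standard error 0.24) and was higher in 1 of 4 sows.

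Of antimicrobial and mucosal defence proteins, 15 of 23 had a probe set, and 2 of the 21 probe sets passed unadjusted, both higher, with a median of 0.00. They were PI3, an elastase inhibitor related to SLPI, and LBP, which binds bacterial lipopolysaccharide, and the probe sets that passed lay at or below background on most arrays, so no fold is given. Another LBP probe set, above background on 7 of 8 arrays, differed by 0.87 (standard error 0.48) and was higher in 4 of 4 sows, with a limma p of 0.106 and of 0.00712 with the sow as a block. Of receptors, modifying enzymes and proteases that act with the members, 14 of 23 genes had a probe set, and 2 of 30 probe sets passed, both lower with Y-spermatozoa, with a median of 0.00. These were ITGA5, an integrin chain, and MMP3, a matrix protease, and the 2 probe sets that passed were below background on all 8 arrays.

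Of sex steroid receptors and regional transcription factors, 7 of 14 genes had a probe set, none of the 8 probe sets passed and the median was -0.26. Only 4 of the 8 lay above background on all 8 arrays, and their differences ran from -0.17 (WT1) to 0.03 (ESR1). The oestrogen receptor ESR1 had signals of 96.0 to 163 with X-spermatozoa and 101 to 141 with Y-spermatozoa, with a difference of 0.03 (standard error 0.21). The progesterone receptor PGR had 343 to 560 and 387 to 485, with a difference of -0.06 (standard error 0.17).

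Markers of the other cell types that scraped mucosa can hold were read in the same way. Of ciliated cells, 8 of 30 genes had a probe set, 0 of 10 probe sets passed, and their summed signal was 5834 to 7028 on X arrays and 5837 to 7852 on Y arrays. FOXJ1, which defines ciliated cells, and COL1A1, which defines stroma, have no probe set under their symbols. Of epithelial markers all 8 genes were measured, 1 of 11 probe sets passed (the dimmer CLDN3 one above), and the summed signal was 8430 to 9746 on X arrays and 9252 to 11301 on Y arrays. On the deposited scale the epithelial sum was higher with Y-spermatozoa in sows 1, 3 and 4 and lower in sow 2, and the part of epithelial content in the differences of the bright members was not tested.

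Of smooth muscle markers 6 of 8 genes were measured and 1 of 9 probe sets passed, 1 of the 3 of SMTN, lower with Y-spermatozoa and below background on all 8 arrays. The summed signal was 1911 to 5079 on X arrays and 1461 to 4225 on Y arrays, and in sow 3 it was 4846 with X-spermatozoa and 1699 with Y-spermatozoa. ACTA2, the smooth muscle actin, had 1179, 3359, 3148 and 1926 with X-spermatozoa and 767, 2562, 1111 and 2651 with Y-spermatozoa, with a difference of -0.62 (standard error 0.48). The muscle marker sum thus varied between both oviducts of a sow, and its part in the members' differences was not tested.

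Of stromal markers 7 of 10 genes were measured and 0 of 12 probe sets passed, with sums of 4546 to 5611 on X arrays and 3377 to 7094 on Y arrays. Of leukocyte markers 9 of 14 genes were measured and 1 of 12 probe sets passed, that of PTPRC, higher with Y-spermatozoa but above background on only 2 arrays. The leukocyte sums were 153 to 160 and 151 to 214. Of endothelial markers all 6 genes were measured and 0 of 13 probe sets passed, with sums of 339 to 473 and 306 to 549, and PECAM1 differed by -0.00 and -0.08 on its 2 probe sets. Of blood cell markers 3 of 5 genes were measured and 0 of 3 probe sets passed, with sums of 208 to 257 and 207 to 238, and HBB differed by -0.08 (standard error 0.14). Of the 149 probe sets on these 11 lists, in which some genes stand on 2 lists, 7 (4.70%) passed the unadjusted threshold, against 3.56% of all probe sets, 4 higher and 3 lower with Y-spermatozoa, and the 1 among them above background on all 8 arrays was the dimmer one of CLDN3.

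**Figure D5:**
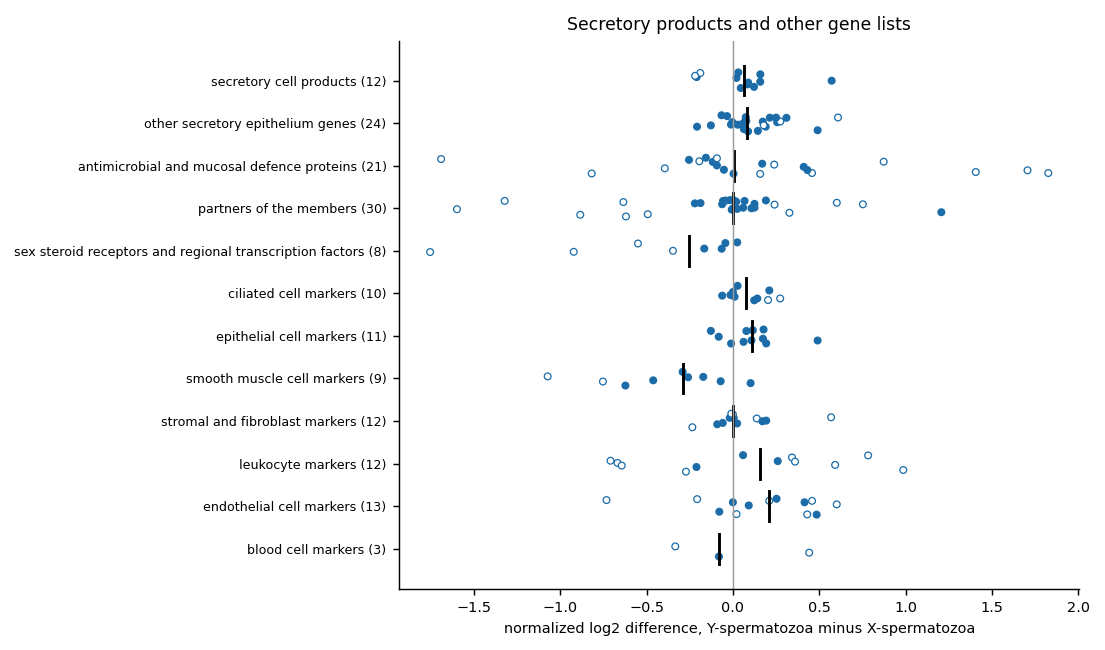
Normalized log2 difference between oviducts with Y-spermatozoa and with X-spermatozoa (horizontal axis) for each probe set of the secretory cell products and of 11 other gene lists, with the number of probe sets in brackets. Filled points lie above background on all 8 arrays, open points do not, and black bars are medians, which run from -0.29 for smooth muscle markers to 0.21 for endothelial markers, with 0.07 for the secretory cell products.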

How the data were processed

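RNA of scraped oviduct cells was measured in 8 oviducts of 4 sows, 1 array each, grouped and numbered by the labels. The deposited table holds a linear intensity for every probe set and array, which the authors made with MAS5 version 5.1 (per the labels) and scaled within each array. The paper's methods describe RMA, which needs probe-level values that were not used here, so the test was run on these signals. All 24123 probe sets were quantile normalized, values under 1 were set to 1, log2 was taken, the 124 AFFX controls were left out, and 23999 probe sets were fitted with limma (version 3.58.1, R 4.3.3), Y-spermatozoa against X-spermatozoa, two-sided, without pairing. Plots were made in matplotlib 3.10.9 under Python 3.11.15.

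Both oviducts of each sow were used and the labels number the arrays 1 to 4 in each group. Deviations from the group means correlated by 0.187, 0.177, 0.144 and 0.132 between arrays of the same number, so the numbers were read as sows. A fit with the sow as a block and an F test of the sow terms were added. Exact permutation tests used the 70 possible relabellings of 8 arrays and take no account of the sow. A member array was above background where its signal exceeded the 95th percentile of the reporter probe sets of that array.

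Gene names come from the platform annotation, in which 10099 probe sets have 1 symbol. Genes named are all members, the 3 most similar probe sets of each member above background on all arrays, probe sets on the other lists that passed unadjusted, and markers that define a list. For CLDN3 and LBP another probe set was given beside the one that passed. The members and lists were chosen with earlier results of these data known. Results were recomputed with the sow as a fixed or random block, the deposited scaling, centring on the median, a pseudocount of 16, the 11999 brighter probe sets alone, keeping AFFX controls, a variance trend, and leaving out each array or sow. The deposited scaling together with the block or with arrays left out, and scaling to the hybridisation controls, were chosen after seeing the data. The number of arrays limits the precision.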

Additional observations from a re-analysis of the deposited data

Results flagged for a closer look

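The brighter AZGP1 probe set (Ssc.16729.1.S1_at) stood out in sow 2, in both oviducts. Among the 4 X arrays, the gap from X2 (1055) to the next highest signal made up 0.853 of the whole range, and among the 4 Y arrays the gap from Y2 (1044) made up 0.848. Of 24 groups of 4 arrays looked at (12 probe sets, each with X- and with Y-spermatozoa) these 2 stood out on the deposited linear scale, and chance gives about 1 in 20. On the normalized log2 scale their shares were 0.684 and 0.698, under the criterion, and 3 other groups exceeded it, namely PIGR (Ssc.16006.1.S1_at) with Y-spermatozoa (0.863) and, where quantile normalization gave 3 arrays equal values, SPP1 with X- and SLPI with Y-spermatozoa (1 each). The dimmer AZGP1 probe set had 44.2 and 46.8 in sow 2, within the range of the other sows (18.6 to 56.6).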

How the results depend on the processing

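The sow as a block (replicate block) raised the number of secretory product probe sets past the unadjusted threshold from 0 to 1, the dimmer one of AZGP1, and so did the sow as a random block. The deposited scaling and centring on the median each gave 2 (SPP1 and SLPI), and the deposited scaling with the block 3, with that AZGP1 probe set. Leaving out arrays or sows gave 0 to 1 without or with the block and 0 to 3 on the deposited scale. No setting gave an adjusted call between the groups. Of the other lists, 7 probe sets passed, 1 among the 11999 brighter probe sets alone, 4 to 9 with arrays left out and 9 to 13 with sows left out and the block. Between sows, 4 passed unadjusted (2 to 5 with arrays or sows left out) and 0 adjusted, but 3 with the pseudocount of 16, 3 among the 11999 brighter probe sets and 1 with a variance trend. The cause of these changes was not tested.

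Scaling to the hybridisation controls lowers every difference of the deposited scale by 0.29, a constant shift of all probe sets, and turned the sign, with or without the block, for OVGP1 (-0.0045), WFDC2 (-0.15 and -0.20), LTF (-0.16), the brighter AZGP1 probe set (-0.13) and PIGR (-0.28 on Ssc.25372.1.S1_at). The pseudocount turned PIGR Ssc.16006.1.S1_at to 0.038. With arrays or sows left out, over all fits, differences spanned -0.33 to 0.72 for the brighter AZGP1 probe set (0.11 to 0.23 with the block and sows left out) and 0.29 to 0.74 for the dimmer, -0.11 to 0.41 for LTF, -0.66 to 0.11 and -0.48 to 0.0016 for MUC1, -0.061 to 0.37 for OVGP1, -0.16 to 0.26 and -0.64 to 0.63 for PIGR, -0.012 to 0.26 and -0.070 to 0.32 for WFDC2, 0.01 to 0.39 for SLPI and 0.06 to 0.43 for SPP1. Signals near background limit the dimmer probe sets of MUC1, PIGR and WFDC2.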
